A study of Schizosaccharomyces pombe with 4 samples.

Results

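The core histone genes and the H2A.Z gene of the fission yeast Schizosaccharomyces pombe were followed in 4 RNA sequencing libraries, 2 from a wild-type strain and 2 from delta4dus. The study describes delta4dus as a deletion of all 4 genes for dihydrouridine synthases (dus1 to dus4); these enzymes reduce uridine to dihydrouridine in RNA. The labels give no other allele for either strain and do not say whether replicates came from separate cultures, so p-values measure the spread between these libraries, which may be technical. Both strains were grown in YES, a rich medium, at 32 °C to an optical density of about 0.5, and total RNA was depleted of ribosomal RNA before stranded library preparation. The genes were taken by name: 10 of the 7049 genes in the deposited count table, all of which passed the filter on low counts. They are hta1 (SPCC622.08c) and hta2 (SPAC19G12.06c) for H2A, htb1 (SPCC622.09) for H2B, hht1 (SPAC1834.04), hht2 (SPBC8D2.04) and hht3 (SPBC1105.11c) for H3, hhf1 (SPAC1834.03c), hhf2 (SPBC8D2.03c) and hhf3 (SPBC1105.12) for H4, and pht1 (SPBC11B10.10c) for H2A.Z.

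The library totals ran from 264948323 to 495098038 counts, of which 40203853 to 59273688 lay outside ribosomal RNA genes. Ribosomal RNA genes took 84.7% and 84.8% of counts for wild-type against 86.4% and 90.7% for delta4dus. Core histone genes had 9870 to 37799 counts in a library and pht1 had 1829 to 2799. Of the deleted genes, fitted levels in delta4dus were 6.88% to 33.9% of wild-type for dus1, dus2 and dus3, which passed the test, and 42.6% for dus4, which did not (edgeR adjusted p = 0.626). Normalised counts of dus4 were 532 and 562 for wild-type against 309 and 153 for delta4dus, lower in both delta4dus libraries but far from 0. Values are over whole genes, and the labels do not say how much of each gene was removed, so the deleted parts themselves were not checked.

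A nucleosome core holds H2A, H2B, H3 and H4 in pairs, with DNA wrapped around them. Core histone mRNA accumulates in S phase, when new DNA has to be packaged, and in fission yeast most of these genes lie as divergent pairs that share the DNA between their starts. Pht1, the H2A.Z variant, replaces H2A at chosen nucleosomes, mostly near promoters, and is placed there by the SWR1 complex outside replication. Fission yeast core histone promoters carry a conserved element, the AACCCT box, bound by the GATA-type factor Ams2 and by Teb1.

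The DNA between the RefSeq starts of each divergent pair is shown because it lies before both genes. The sequences are the plus strand of the RefSeq assembly ASM294v3, between the annotated transcript starts, and capitals mark matches to AACCCT on either strand. The hta1 and htb1 region is chrIII:1412182-1412358, that of hhf1 and hht1 chrI:4699600-4699731, that of hhf2 and hht2 chrII:1364985-1365118, and that of hht3 and hhf3 chrII:3529566-3529766. The counted gene models have other starts, and there hhf2 and hht2 overlap by 3 bases and hht3 and hhf3 by 1 base. The regions of these pairs thus lie within counted genes, and those of the other pairs reach into hta1 and hht1. For hta2, which has no divergent partner, the 250 bases before its start are given on its own strand (chrI:4053319-4053568, minus strand).
hta1-htb1: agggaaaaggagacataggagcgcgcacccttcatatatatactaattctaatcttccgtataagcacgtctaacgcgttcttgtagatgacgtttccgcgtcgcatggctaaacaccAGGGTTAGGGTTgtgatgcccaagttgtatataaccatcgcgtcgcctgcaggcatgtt
hhf1-hht1: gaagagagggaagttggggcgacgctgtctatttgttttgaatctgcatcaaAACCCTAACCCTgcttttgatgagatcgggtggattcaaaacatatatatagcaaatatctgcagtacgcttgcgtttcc
hhf2-hht2: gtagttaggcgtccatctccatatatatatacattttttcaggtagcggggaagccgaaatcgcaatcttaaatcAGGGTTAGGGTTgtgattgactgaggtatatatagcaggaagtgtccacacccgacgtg
hht3-hhf3: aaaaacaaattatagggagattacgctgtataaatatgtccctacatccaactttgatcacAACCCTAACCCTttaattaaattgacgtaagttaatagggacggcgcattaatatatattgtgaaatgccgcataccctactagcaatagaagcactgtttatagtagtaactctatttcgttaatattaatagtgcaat
hta2: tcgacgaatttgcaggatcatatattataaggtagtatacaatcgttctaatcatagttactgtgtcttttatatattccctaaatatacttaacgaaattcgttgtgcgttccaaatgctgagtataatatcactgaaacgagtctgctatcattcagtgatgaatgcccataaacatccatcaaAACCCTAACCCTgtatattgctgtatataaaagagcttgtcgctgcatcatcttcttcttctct

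Each of the 5 regions held exactly 2 matches to AACCCT, side by side with no base between them and on 1 strand. The 250 bases before pht1 (chrII:1503445-1503694, minus strand) held none. In windows from 250 bases before to 50 after the annotated start, AACCCT on either strand was present in 9.70% of 5112 coding genes and in 9 of the 10 histone genes, all but pht1. The tandem pair was present in 20 of the 5112 windows (0.391%), 9 of them core histone genes and 11 of other genes. Both genes of a divergent pair have windows over the same gap, so the 9 core histone windows hold only the tandem pairs of the 5 regions. Among 177 gaps of 100 to 250 bases between divergent coding genes, the tandem pair was present in 4, all histone gaps. The TATA box letters TATAAA were present in 5 of the 10 histone windows and in 48.1% of all coding windows. Only these exact letters were searched, not other forms such as TATATA, which the sequences above also hold. The AACCCT and TATAAA matches were found in the reference sequence, and no binding was measured.

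**Figure D1:**
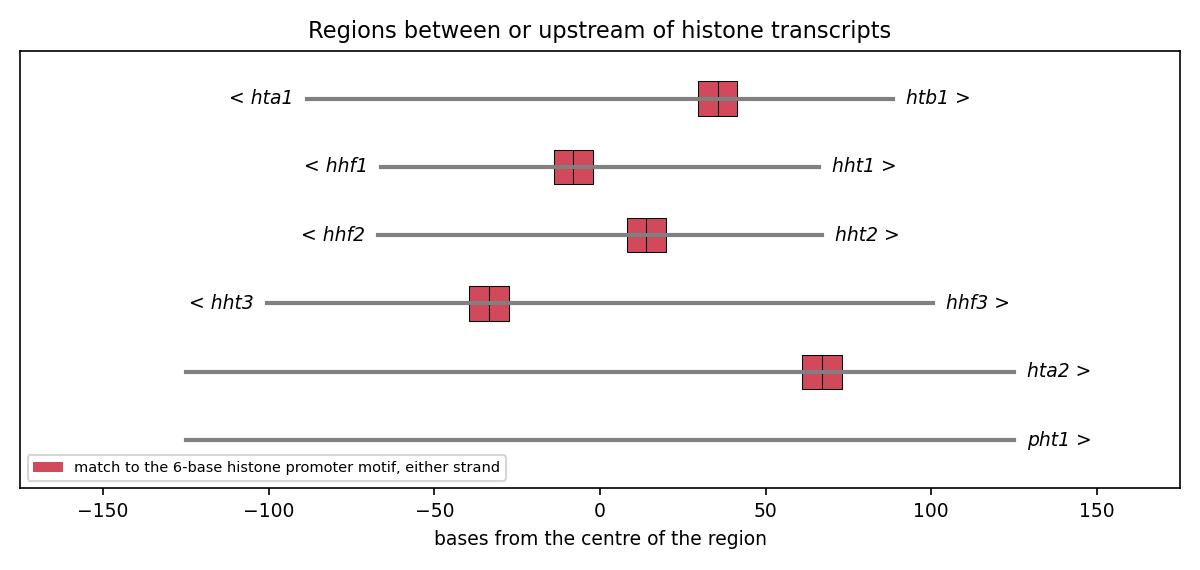
Position of matches to the 6-base AACCCT box in the region between each divergent histone pair and in the 250 bases before hta2 and pht1; the x axis is the distance in bases from the centre of each region, and arrows give the direction of transcription. In each of the 5 core histone regions 2 matches stand side by side, and the pht1 region has none.

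The copies of each core histone encode near-identical proteins from differing DNA. The 3 H3 coding sequences are 411 bases long and differ from each other at 30 to 48 bases, yet all encode the same 136 residues. The 3 H4 coding sequences of 312 bases differ at 21 to 27 bases and encode the same 103 residues. Translated hta1 and hta2 were 97.7% identical, and pht1 was 55.0% identical to hta1 and 55.7% to hta2. The longest exact run shared by any 2 copies was 55 bases, between the transcripts of hhf2 and hhf3; it was 47 bases at most among H3 genes and 41 bases between hta1 and hta2. Neither read length nor the handling of reads with several matches is given in the sources used here, so reads in such runs may have been counted at more than 1 copy. The coding sequence was a single uninterrupted segment in all 10 genes, as in 53.3% of 5113 coding genes.

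In wild-type the mean levels of the 9 core histone genes ran from 13976 (hhf2) to 29167 (hht1), and pht1 was far lower. Levels are compared as normalised reads per kilobase of the counted gene model (counts divided by a relative library size from TMM scaling, then by length). hht1 was first at 29167 ± 3416 (SD, n = 2 libraries, here and for the levels that follow), then hta1 at 27996 ± 1257 and htb1 at 25858 ± 2243. Neighbours among these 3 overlapped. hhf1 followed at 23595 ± 166 and overlapped neither neighbour in the order. Then came hht2 (21102 ± 839), hht3 (20947 ± 510), hhf3 (18841 ± 2533) and hta2 (18501 ± 581), each overlapping the next. hhf2 was the lowest core gene at 13976 ± 122, and pht1 had 1707 ± 44.6. Among 5104 coding genes ranked by this level, core histone genes stood between rank 193 (hht1) and 304 (hhf2), and pht1 at 1744.

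In delta4dus the order was the same at its ends, with hht1 first at 26195 ± 3560 and hhf2 (12499 ± 380) and pht1 (1701 ± 51.4) last. In between, hta1 and htb1, which overlapped in both strains, changed places, and so did hhf1 and hht2. In wild-type the libraries of hhf1 had 23478 and 23712 normalised reads per kilobase and those of hht2 had 21696 and 20509. In delta4dus hhf1 had 19590 and 18735, and hht2 had 19772 and 21974. By these lengths, hhf1 and hht2 did not overlap in either strain, with hhf1 above hht2 in wild-type and below it in delta4dus. This order rests on the counted gene models, which are 772 bases long for hhf1 and 778 for hht2. The RefSeq transcripts are 827 and 700 bases long. Dividing the same counts by those lengths would place hhf1 below hht2 in both strains. The change of order between the strains thus depends on the lengths used. The difference was not tested.

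**Figure D2:**
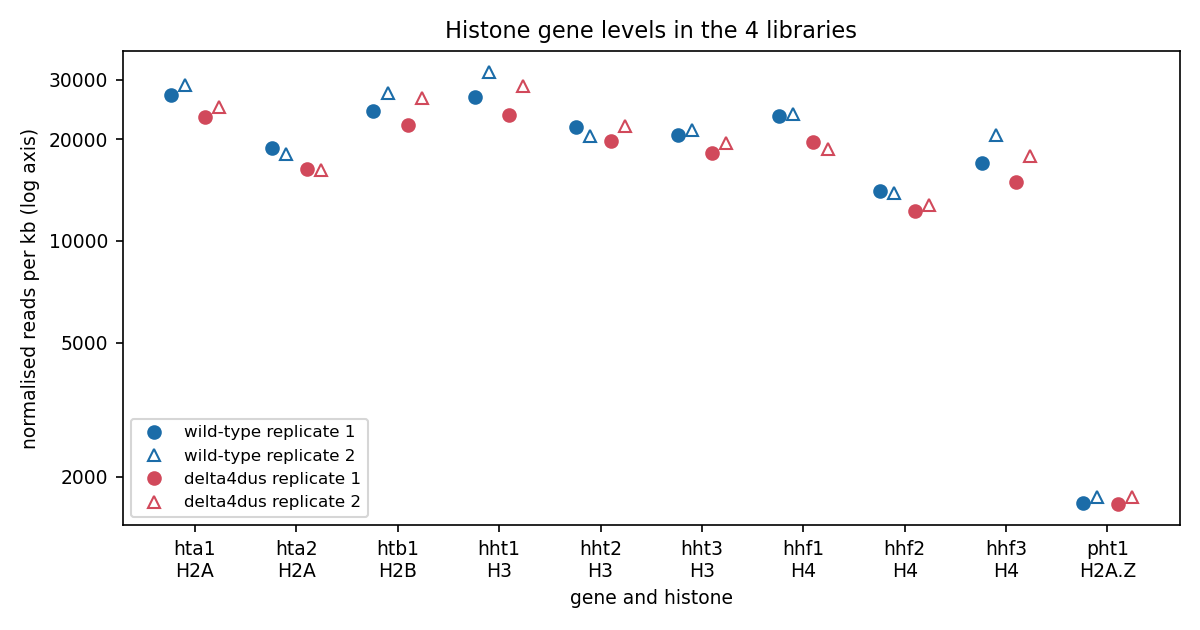
Normalised reads per kilobase (log axis) of the 10 histone genes in each library; circles are replicate 1, triangles replicate 2, blue is wild-type and red delta4dus. Core histone genes lie between 12230 and 31583 and pht1 between 1665 and 1738; for hhf1 both delta4dus libraries are below both wild-type libraries.

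The comparison of delta4dus with wild-type addresses how the loss of the 4 enzymes relates to transcript levels. By the quasi-likelihood test of edgeR, with p adjusted by Benjamini-Hochberg over all 6813 genes tested, 0 of the 10 histone genes were called at an adjusted p under 0.05, against 0.0734% of all genes. At an unadjusted p under 0.05, 4 histone genes were lower in delta4dus and none was higher, against 4.02% of all genes for the lower direction. That count was 1 without either wild-type library or without the first delta4dus library. DESeq2 called 1, hhf1, against 0.74% of all genes. Fitted log2 fold changes were negative for all 10 genes, with a median of −0.16, against a median of −3.7e-06 over all genes, of which 50.0% were negative. Without the second wild-type library the histone median was −0.09 and 8 genes were below 0. Without the first delta4dus library it was −0.09 with 7 below 0. It was −0.18 with 9 below 0 without the first wild-type library, and −0.22 with 10 below 0 without the second delta4dus library. The 2 delta4dus libraries lay below both wild-type libraries in 5 of the 10 genes (hta1, hta2, hht3, hhf1 and hhf2), against 19.7% of all genes. The differences were small, at most 18.8%. With library totals in place of TMM the median of all genes moved to −0.42 and that of the histone genes to −0.60; relative to the moved median, the histone genes ran from −0.29 (hhf1) to −0.0095 (pht1).

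As a share that needs no scaling factor, the 10 genes together took 0.475% and 0.474% of all coding gene counts for wild-type against 0.419% and 0.412% for delta4dus. The shares did not overlap between the strains. In whole cultures, fewer cells in the phase that makes histone mRNA and less histone mRNA per cell cannot be told apart.

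**Figure D3:**
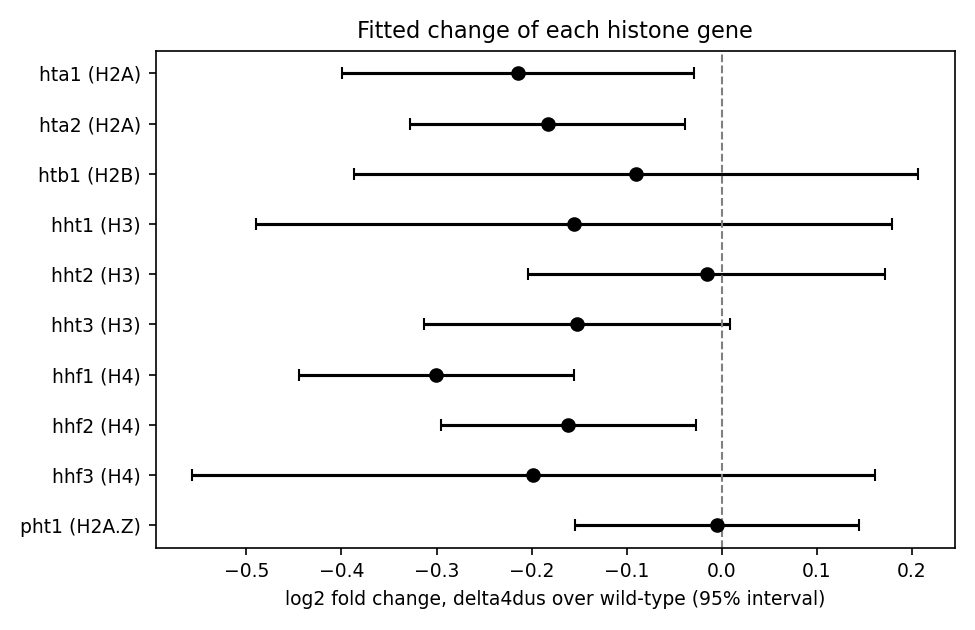
Fitted log2 fold change of each histone gene, delta4dus over wild-type, with its 95% interval from edgeR; the dashed line is 0. All 10 points are below 0, and the intervals of hta1, hta2, hhf1 and hhf2 lie wholly below it.

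The H4 genes included the gene with the largest fitted difference. H4 joins H3 at the centre of the nucleosome, and its tail is acetylated. Normalised counts of hhf1 (chromosome I, 4698773 to 4699544, minus strand, ASM294v2 as for all gene positions given here) were 18125 and 18306 for wild-type against 15123 and 14464 for delta4dus. Both delta4dus libraries were lower, and the libraries of a strain lay close together. Its log2 fold change was −0.30 (SE 0.0578, 95% interval −0.44 to −0.16), a level 18.8% lower, with an adjusted p of 0.484 by edgeR and an unadjusted p of 0.00266. The authors' deposited table gives hhf1 the same rounded value, −0.30, with an adjusted p of 0.00277; it was the 1 histone gene under 0.05 there, against 0.7% of that table's 7000 genes. Its log2 fold change ran from −0.34 to −0.27 as each library was left out in turn, with no edgeR call.

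For hhf2 (chromosome II, 1364189 to 1365043, minus strand), normalised counts were 12023 and 11876 for wild-type against 10457 and 10917 for delta4dus. The strains did not overlap here either, and the log2 fold change was −0.16 (95% interval −0.29 to −0.03, edgeR adjusted p = 0.626). For hhf3 (chromosome II, 3529657 to 3530388, plus strand) they were 12480 and 15103 for wild-type against 10946 and 13098 for delta4dus. The second wild-type library was the highest of all, and the second delta4dus library was above the first wild-type library. Its log2 fold change of −0.20 had an interval from −0.56 to 0.16 (edgeR adjusted p = 0.788). It was −0.05 without the second wild-type library and −0.08 without the first delta4dus library, but −0.33 without either of the other two.

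The H2A genes encode a histone whose C-terminal tail is phosphorylated at DNA breaks in yeast. Normalised counts of hta1 (chromosome III, 1411144 to 1412214, minus strand) were 29032 and 30935 for wild-type against 25019 and 26665 for delta4dus. Those of hta2 (chromosome I, 4052446 to 4053397, minus strand) were 18004 and 17222 for wild-type against 15599 and 15430 for delta4dus. Neither gene's strains overlapped, and both were lower in delta4dus. The log2 fold changes were −0.21 (95% interval −0.40 to −0.03) for hta1 and −0.18 (−0.33 to −0.04) for hta2, with edgeR adjusted p of 0.628 and 0.626. The single H2B gene htb1 (chromosome III, 1412387 to 1413677, plus strand) had 31335 and 35430 for wild-type against 28463 and 34267 for delta4dus. The second library of each strain was the higher one, and the strains overlapped. Its log2 fold change of −0.09 (95% interval −0.39 to 0.21, edgeR adjusted p = 0.906) was 0.0015 without the second wild-type library and 0.03 without the first delta4dus library. It was −0.18 without the first wild-type library and −0.23 without the second delta4dus library.

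The H3 genes encode the histone that carries the lysine 9 methylation of fission yeast heterochromatin. Normalised counts of hht1 (chromosome I, 4699691 to 4700560, plus strand) were 23274 and 27477 for wild-type against 20600 and 24980 for delta4dus, so the strains overlapped. Those of hht2 (chromosome II, 1365041 to 1365818, plus strand) were 16879 and 15956 for wild-type against 15382 and 17096 for delta4dus. For hht2 a delta4dus library was the highest of the 4 and the other was the lowest. Those of hht3 (chromosome II, 3528800 to 3529657, minus strand) were 17663 and 18282 for wild-type against 15603 and 16743 for delta4dus, without overlap. The log2 fold changes were −0.16 (95% interval −0.49 to 0.18) for hht1, −0.02 (−0.20 to 0.17) for hht2 and −0.15 (−0.31 to 0.01) for hht3, with edgeR adjusted p of 0.83, 0.977 and 0.667. That of hht1 was −0.03 without the second wild-type library or the first delta4dus library, −0.27 without the first wild-type library and −0.30 without the second delta4dus library. That of hht2 was 0.02 without the first wild-type library and 0.05 without the first delta4dus library, and −0.06 and −0.09 without the second wild-type and second delta4dus libraries.

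The H2A.Z gene pht1 (chromosome II, 1502203 to 1503468, minus strand) had nearly equal levels in the strains. Its normalised counts were 2121 and 2201 for wild-type against 2108 and 2200 for delta4dus. The log2 fold change was −0.0049 with a 95% interval from −0.15 to 0.14 (edgeR adjusted p = 0.991), which leaves room for differences of about that size in either direction. The sign is not settled: the value was 0.0078 with coding genes alone and 0.02 without the second wild-type or the first delta4dus library.

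**Figure D4:**
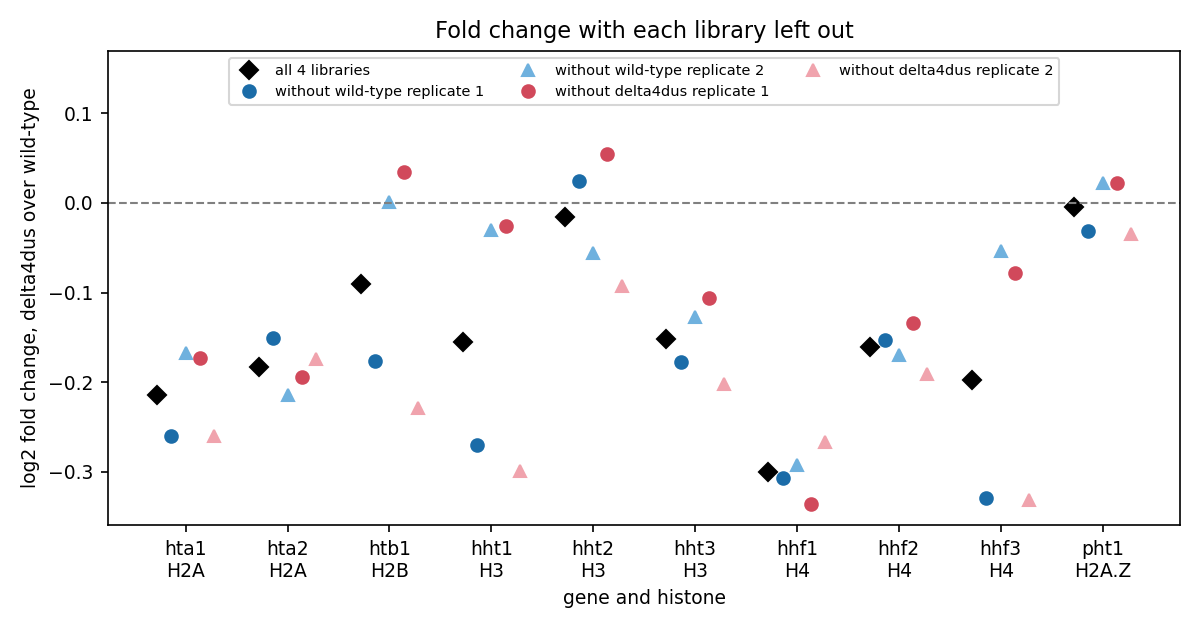
Log2 fold change of each histone gene, delta4dus over wild-type, fitted by edgeR with all 4 libraries (black diamonds) and with each library left out. The values of hhf1 stay between −0.34 and −0.27; those of htb1, hht2 and pht1 cross the dashed line at 0.

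Within divergent pairs, ratios of the 2 genes are free of library scaling, but their size depends on the gene lengths used. The hht2 to hhf2 pair had no overlap between strains. Its ratio of reads per kilobase, H3 to H4, was 1.54 and 1.48 for wild-type against 1.62 and 1.72 for delta4dus. The mean log2 ratio was 0.59 ± 0.0448 for wild-type against 0.74 ± 0.0638 for delta4dus (SD over 2 libraries), a difference of 0.14. The hht1 to hhf1 ratio was 1.14 and 1.33 for wild-type against 1.21 and 1.53 for delta4dus. The hht3 to hhf3 ratio was 1.21 and 1.03 for wild-type against 1.22 and 1.09 for delta4dus. In both of these pairs the strains overlapped, and the libraries of a strain differed more than the strain means did. The hta1 to htb1 ratio was 1.12 and 1.05 for wild-type against 1.06 and 0.938 for delta4dus, with overlap. With 2 libraries per strain there are 6 arrangements, and the smallest p of a two-sided exact permutation test is 0.333, so no p is given for these ratios.

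**Figure D5:**
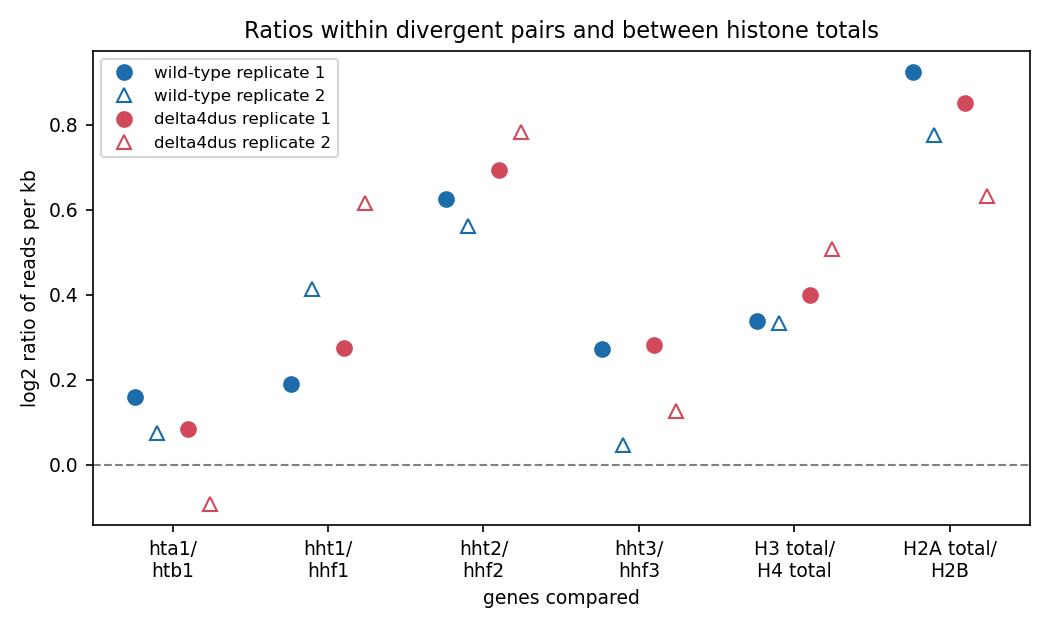
Log2 ratio of reads per kilobase within each divergent pair and between summed histones, in each library (symbols and colours by replicate and strain); the dashed line is equality. For the hht2 to hhf2 ratio and the H3 to H4 totals both delta4dus libraries are above both wild-type libraries. The other ratios overlap between the strains.

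Summed over copies, H4 and H2A were lower in both delta4dus libraries, while H3 and H2B overlapped. Normalised counts over the 3 H4 genes were 42628 and 45285 for wild-type against 36527 and 38478 for delta4dus. Over the 2 H2A genes they were 47036 and 48157 for wild-type against 40618 and 42095 for delta4dus. Neither sum overlapped between the strains. Over the 3 H3 genes they were 57817 and 61715 for wild-type against 51585 and 58819 for delta4dus, so the second delta4dus library was above the first wild-type library. The ratio of summed H3 to summed H4 reads per kilobase was 1.26 in each wild-type library and 1.32 and 1.42 in delta4dus, without overlap. That of H2A to H2B was 1.90 and 1.71 for wild-type against 1.80 and 1.55 for delta4dus, with overlap. The H3 and H4 sums include hht2 and hhf2, so the H3 to H4 ratio is not separate from the ratio of that pair. No p is given here either, since a lack of overlap reaches an exact permutation p of only 0.333 with 2 libraries per strain. The summed values hold any read counted at 2 copies more than once.

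The division of each histone among its copies overlapped between the strains for 7 of the 8 copies. Shares within a histone add to a fixed total, so these are not 8 separate comparisons. Overlap with so few libraries does not show that the division was unchanged. Per kilobase, hht1 supplied 38.8% and 43.0% of H3 reads for wild-type against 38.4% and 40.9% for delta4dus. hta1 supplied 58.9% and 61.5% of H2A reads for wild-type against 58.8% and 60.6% for delta4dus. Both shares overlapped. hhf1 supplied 43.0% and 40.7% of H4 reads for wild-type against 41.9% and 37.9% for delta4dus, also with overlap. The exception was hhf2, with 25.76% and 23.85% for wild-type against 26.15% and 25.85% for delta4dus, a gap of under 0.1 percentage points between the nearest libraries.

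Genes next to the histone loci were not called by edgeR. The non-coding RNA gene SPNCRNA.1194 runs antisense over all of hta1. It had 85 and 67 counts for wild-type against 164 and 110 for delta4dus, where hta1 had 24365 to 33226, a log2 fold change of 0.55 (edgeR adjusted p = 0.628, unadjusted p = 0.0366); it was named after its values were seen. SPNCRNA.1611, antisense over hhf3, had 20 to 40 counts. The counted models of hht2 and hhf2 overlap by 3 bases on opposite strands, and those of hht3 and hhf3 by 1 base. In addition, hhf2 overlaps SPNCRNA.1432, which had 326 to 432 counts, by 79 bases on its own strand. Likewise hht3 overlaps SPNCRNA.1611 by 59 bases on its own strand. On opposite strands, hht3 overlaps rav1 by 46 bases and htb1 overlaps sec5 by 258 bases. The part of these overlaps in the values was not tested.

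Genes that act on histones or in S phase were read from 5 lists with 80 genes in all. Of these edgeR called 0, against 0.0734% of all genes, and DESeq2 called 0, against 0.74%. With shares this low, 0 calls among 80 genes say little about the lists. Over all genes tested, 7.57% had an unadjusted p under 0.05 in either direction. Of 17 histone chaperones and regulators of histone genes, 0 passed over all genes, 10 were below 0 and the median log2 fold change was −0.0041. At an unadjusted p under 0.05 there were also 0. ams2, the transcription factor of the histone promoters, had 2953 and 2930 normalised counts for wild-type against 3102 and 3023 for delta4dus. The delta4dus libraries were the higher ones, and the log2 fold change was 0.06 (95% interval −0.07 to 0.19, edgeR adjusted p = 0.833). The smallest p in the list belonged to hip3, a subunit of the HIRA histone chaperone (log2 fold change 0.10, edgeR adjusted p = 0.682), and asf1, an H3 and H4 chaperone (0.14, 0.713), neither of which passed.

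Of 22 genes of the SWR1 and INO80 complexes, which exchange H2A.Z, 0 passed over all genes and 2 had an unadjusted p under 0.05. Of the 22, 12 were below 0, with a median log2 fold change of −0.02. The smallest p belonged to the INO80 subunit genes ies4 (−0.21, edgeR adjusted p = 0.628) and ies6 (−0.17, 0.642).

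Of 22 genes of S phase and the MBF transcription factor, 0 passed and 1 had an unadjusted p under 0.05; 16 were above 0 and the median log2 fold change was 0.03. cdt2, which directs the destruction of a ribonucleotide reductase inhibitor, had a log2 fold change of −0.19 (edgeR adjusted p = 0.628), and mcm5, a subunit of the replicative helicase, 0.14 (0.692).

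Of 5 genes of the centromeric histone, 0 passed at either level, 3 were below 0 and the median was −0.05. cnp1, which encodes the centromeric H3 variant CENP-A, had 717 and 694 normalised counts for wild-type against 639 and 630 for delta4dus. The strains did not overlap, and the log2 fold change was −0.15 (95% interval −0.37 to 0.07, edgeR adjusted p = 0.736). fta2, a kinetochore gene, was at 0.16 (edgeR adjusted p = 0.716). Of 14 histone-modifying enzymes, 0 passed, 1 had an unadjusted p under 0.05, 6 were below 0 and the median was 0.0094. rhp6, the ubiquitin-conjugating enzyme for H2B, was at −0.15 (edgeR adjusted p = 0.645), and set1, the H3 lysine 4 methyltransferase, at 0.10 (0.687).

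The histone genes varied among themselves across the 4 libraries. The per-library median of the 10 genes, as log2 normalised counts centred on the mean of each gene, was 0.05 and 0.12 for wild-type against −0.12 and 0.0014 for delta4dus. Of 1637 coding genes with a mean of at least 10 CPM that overlap no histone gene, 79 (4.83%) lay within a Euclidean distance of 0.1 of this median pattern. The nearest were tom22 (0.0353), ypt1 (0.0413) and mmf1 (0.0418). Of the histone genes themselves, 3 lay within 0.1, namely hht3 (0.0323), hta1 (0.0787) and hhf2 (0.0802). The other 7 lay at 0.14 (htb1) to 0.21 (hhf1). The pattern is the median of these same 10 genes, so their distances cannot be compared with the 4.83% of other genes.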

How the data were processed

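The submitters' processing notes name Trimmomatic 0.36, TopHat2, featureCounts and the build ASM294v2; the sources used here do not give the settings of featureCounts. Deposited values are raw counts of reads per gene for 4 libraries, with 0 columns left without a sample. The authors' deposited table, made with DESeq2 per the submitters' processing notes, holds a mean normalised signal, log2 fold changes with errors, a test score and p-values; it has 7000 genes and lacks the 49 ribosomal RNA genes.

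edgeR 4.0.16 in R 4.3.3 was run over all genes: filterByExpr (minimum count 10, minimum total 15) kept 6813 genes, then TMM scaling and a robust quasi-likelihood test of genotype (2 residual degrees of freedom), two-sided, with Benjamini-Hochberg adjustment and calls under 0.05. The fit was tested on simulated data, in which every altered gene differed by more than the histone genes do here. That test therefore does not show whether differences of the histone size would be called. Alternatives were DESeq2 1.42.0, other scalings and filters, a replicate term and each library left out. CPM values were scaled by TMM and computed from the deposited counts.

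The 10 genes and the gene lists were chosen with earlier results of these data known. The text names these genes, the deleted genes, ams2, cnp1, called genes of each list or else its 2 with the smallest p, called neighbours (there were none), and the 3 coding genes nearest in pattern. The motif searches were chosen after the sequences were seen. Symbols, coding sequences and promoters came from RefSeq ASM294v3 by systematic name, which matched all 10 genes and 6844 of the 7049; all 10 share at least 1 gene end with the deposited models. Reads shared by copies or overlapping genes limit the values, and intervals come from the spread between libraries.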

Additional observations from a re-analysis of the deposited data

How the results depend on the processing

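Of 120 values (10 genes under 12 alternatives), 105 kept their direction and their side of the threshold, 8 passed the threshold with the same direction and 7 changed sign. DESeq2 called 52 genes, of which 1 was a histone gene (hhf1, adjusted p = 0.00141), against 5 and 0 with edgeR. Leaving out single libraries gave 3 to 5 calls (3 without the second wild-type library) and 0 histone genes each time. The sign changes were all in genes near 0: the log2 fold change ran from −0.23 to 0.034 for htb1 (0.0015 without WT replicate 2), from −0.093 to 0.055 for hht2 (0.02 without WT replicate 1) and from −0.034 to 0.022 for pht1 as libraries were left out, and was 0.0078 for pht1 with coding genes alone. The difference of the hht1 to hhf1 log2 ratio ran from −0.03 to 0.31 and that of hht3 to hhf3 from −0.07 to 0.16. The summed H2B value was 0.04 without delta4dus replicate 1.

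Adding the replicate number to edgeR as a block, 825 of 6813 genes and 7 of the 10 histone genes were called, all 7 lower (all but htb1, hht2 and pht1). The adjusted p of the 7 ran from 3.55e-06 (hhf1) to 0.0389 (hht1). Deviations from the strain mean correlated between libraries of the same number (Pearson 0.784 across 6813 genes), but nothing in the labels makes the numbers pairs, and 2 pairs are too few to decide it.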
